A study of Mus musculus with 23 samples.

Results

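The genes described here are 49 mouse genes of the type I interferon response, taken by symbol from the 35825 genes measured. They comprise the receptor chains, the transcription factors that carry the signal and the genes those factors switch on. Microglia were sorted from retinas as GFP+ cells in 6 groups, and RNA was sequenced in bulk from 23 libraries. The WT libraries came from CX3CR1-GFP mice, in which one Cx3cr1 allele carries GFP, and the KO libraries from Spp1 KO; CX3CR1-GFP mice, in which the gene for secreted phosphoprotein 1 was targeted in all cells and not in microglia alone. For each genotype there were 4 naive libraries and 4 libraries at 4 weeks after intraocular pressure was raised by microbeads (IOP), while 3 WT and 4 KO libraries were collected at day 7 after optic nerve crush (ONC). All 6 groups therefore share the GFP insertion at Cx3cr1, retinas of several mice were pooled for a sort, mice of both sexes were used, and the age was not given in the sources used here.

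Type I interferons bind a receptor built from IFNAR1 and IFNAR2, whose kinases JAK1 and TYK2 activate STAT2 among other factors. STAT2 acts with IRF9 in a complex that binds interferon-stimulated response elements near gene starts and raises a large set of antiviral genes, among them IRF7, which amplifies further interferon production. Microglia keep a low level of many of these genes in healthy neural tissue and raise them after infection, neuronal injury and ageing.

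The response element is a repeat of GAAA with 2 bases of any kind between the copies, and both strands were searched from 250 bases before to 50 bases after each start in RefSeq sequences of build GRCm38.p6. A window was found for 38 of the 49 genes, and 18 of these 38 (47.4%) held the repeat, against 3.99% of the 27025 genes in the whole table. A match of these letters is a description of the sequence and not a bound site. The 6 genes with at least 2 matches wholly before the start are shown because they span the roles followed below, from the ubiquitin-like protein ISG15 to RNA-binding and membrane effectors. Each stretch reads 5′ to 3′ on the strand of the gene, and capitals mark the matches, which overlap in Isg15, Oas1a, Bst2 and Gbp3.
Isg15, chr4:156200855-156200916, minus strand: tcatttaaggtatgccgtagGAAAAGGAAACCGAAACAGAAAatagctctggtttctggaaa
Ifit1, chr19:34640765-34640833, plus strand: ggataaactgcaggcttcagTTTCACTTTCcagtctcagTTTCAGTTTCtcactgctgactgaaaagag
Ifit3, chr19:34583353-34583436, plus strand: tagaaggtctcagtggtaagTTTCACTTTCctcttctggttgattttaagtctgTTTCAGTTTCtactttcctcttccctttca
Oas1a, chr5:120907526-120907565, minus strand: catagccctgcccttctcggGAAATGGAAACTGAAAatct
Bst2, chr8:71537567-71537622, minus strand: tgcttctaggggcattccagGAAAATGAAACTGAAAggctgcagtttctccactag
Gbp3, chr3:142559979-142560034, plus strand: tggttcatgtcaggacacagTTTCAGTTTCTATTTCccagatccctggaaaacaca
In Isg15, Oas1a and Bst2 the repeat lies on the strand of the gene, whereas in Ifit1, Ifit3 and Gbp3 it lies on the other strand and appears as TTTC.

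Libraries held 22180480 to 30296094 reads on genes, and each value below is a normalized count, in which reads were scaled for differences in depth between libraries. Microglial markers (16 genes, among them P2ry12 and Csf1r) were present in every library, with 1.80% to 5.52% of all counts. Libraries nevertheless differed in purity. Naive KO replicates 1, 2 and 4 held 1.80% to 2.44% microglial and 3.35% to 3.98% rod photoreceptor marker counts, whereas naive KO replicate 3 held 5.14% and 1.26%. WT IOP replicates 1 and 4 held 2.75% and 2.97% rod marker counts, and rod markers were 0.543% to 2.05% in the 18 libraries other than these 5. In bulk libraries fewer cells of a type and less RNA per cell cannot be told apart.

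Spp1, the targeted gene, was first read in every library. It was 1228, 1518, 334 and 492 in WT naive, 2353, 2410, 1343 and 2772 in WT IOP, and 14557, 16067 and 22906 in WT ONC. In the libraries labelled KO it was 350, 53.1, 6.78 and 81.6 in naive, 25.5, 811, 9.28 and 761 after IOP, and 4750, 6811, 15 and 6226 after ONC. Thus 6 of the 12 libraries labelled KO held over 100 normalized counts of Spp1, and naive KO replicate 1 exceeded the lowest naive WT library. Results for KO libraries are therefore given below also without these 6. Cx3cr1 was 952 to 1233 in KO IOP libraries and 9417 to 67878 in the other groups. Among these it was 44957 to 67878 in naive WT and 9417 to 26283 in naive KO libraries, without overlap. The Y-linked gene Ddx3y was 0 to 3.05 in KO IOP libraries but 633 to 2274 in WT IOP libraries. Genotype, Cx3cr1 level and sex of the mice therefore cannot be told apart after IOP. In naive retinas genotype and Cx3cr1 level cannot be told apart.

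All 49 genes passed the filter of at least 10 normalized counts in at least 3 libraries, and all 49 had more than 3 reads in every library. The lowest value of any of them was 9.35, for the antiviral GTPase gene Mx2 in naive KO replicate 4. Per kilobase of the longest transcript, Ifitm3 (membrane protein that blocks viral entry, 4833), Lgals3bp (secreted galectin-binding glycoprotein, 4092) and Ifi27l2a (a small interferon-induced protein, 2248) had the highest levels in naive WT libraries. After ONC in WT the leading level per kilobase was that of Ifi27l2a (60300), followed by Ifitm3 (33416) and Lgals3bp (25454), and in KO libraries the same 3 genes led as Lgals3bp (30998), Ifi27l2a (27352) and Ifitm3 (22361). Mx2 had the lowest level per kilobase in these 3 groups, at 26.4, 51.9 and 82.2. Gene families with near-identical copies (Oas1a, Ifit3, Ifi204 and Ifi207, Slfn8, Trim30a) carry extra uncertainty, because reads can be divided among copies.

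**Figure D1:**
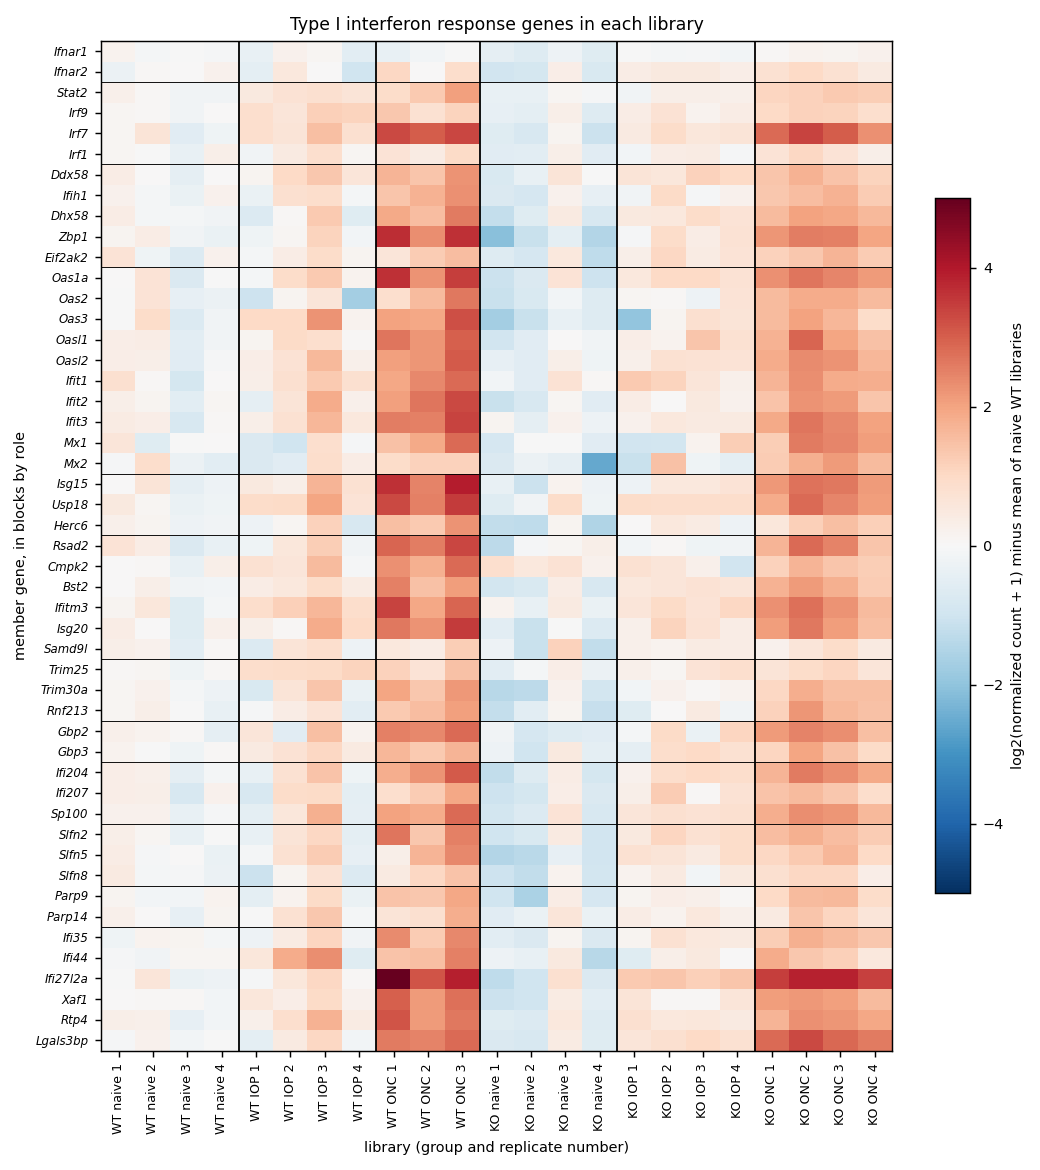
Log2(normalized count + 1) of each of the 49 genes (rows, in blocks by role) in each of 23 libraries (columns), after subtraction of the mean of the 4 naive WT libraries. Both ONC groups are red throughout most rows, the receptor rows at the top stay pale, and naive KO replicates 1, 2 and 4 are blue where replicate 3 is close to white.

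Averaged over the 49 genes, log2(normalized count + 1) was 9.80 ± 0.25 (SD, n = 4) in WT naive, 10.24 ± 0.57 (n = 4) in WT IOP and 11.83 ± 0.39 (n = 3) in WT ONC. The same mean was 9.33 ± 0.49 (n = 4) in KO naive, 10.23 ± 0.17 (n = 4) in KO IOP and 11.48 ± 0.28 (n = 4) in KO ONC. The ONC libraries (11.19 to 12.25) lay above every naive and IOP library, of which WT IOP replicate 3 was the highest at 11.01. The mean over all 17102 genes tested was between 7.40 and 8.13 in every library. The genes moved together among libraries of a group: WT IOP replicate 3 was the highest of its group for 45 of the 49 genes, naive KO replicate 3 for 44, WT ONC replicate 3 for 38 and KO ONC replicate 2 for 36. The share of all genes is not given here. WT IOP replicate 3, naive KO replicate 3 and KO ONC replicate 2 also had the highest mean log2 of the microglial markers in their groups (15.44, 15.62 and 15.93). WT ONC replicate 3 did not (15.89, against 16.05 in replicate 1). The part of microglial content was not tested.

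**Figure D2:**
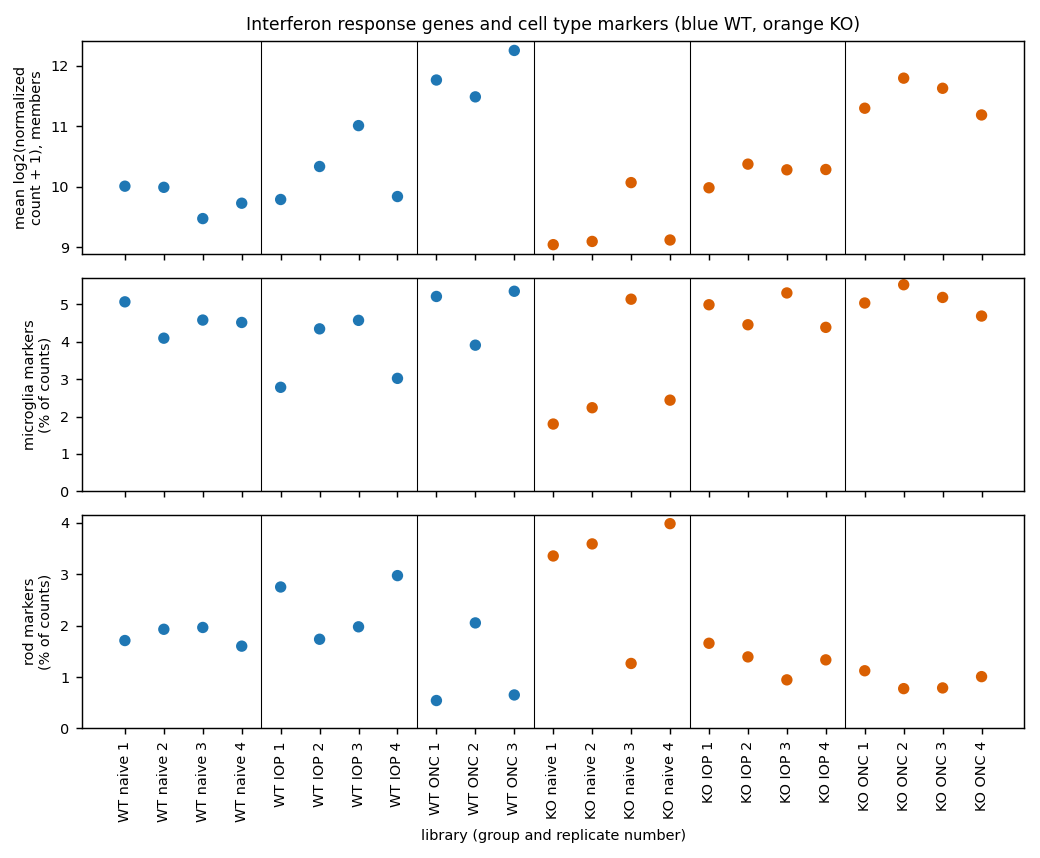
Upper panel, mean log2(normalized count + 1) of the 49 genes in each library. Middle and lower panels, microglial and rod photoreceptor markers as a percentage of all counts in the same libraries, with axes from 0. Naive KO replicates 1, 2 and 4 are low in the upper and middle panels (9.04 to 9.12, and 1.80% to 2.44%) and high in the lower one.

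To determine how nerve crush changed the interferon response, WT ONC libraries were compared with WT naive libraries. A gene was called when the adjusted p in limma (Benjamini-Hochberg over all genes tested) was below 0.05 and the log2 fold change on the log2(normalized count + 1) scale was beyond 0.58. In WT, 43 of the 49 genes rose and 0 fell, against 7.55% of all genes called higher. The median log2 fold change was 2.02, against -0.10 over all genes tested. The 2 groups did not overlap for 45 of the 49 genes, all higher after ONC, against 12.1% of all genes.

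Irf7, the inducible interferon regulatory factor (chromosome 7, 141262706 to 141266481, minus strand), was 1838, 2745, 1187 and 1512 in naive WT libraries and 16900, 14144 and 17561 after ONC. Every ONC library exceeded every naive library, and the log2 fold change was 3.22 ± 0.29 (SE, adjusted p = 8.6e-07 in limma). Ifi27l2a was 987, 1532, 791 and 853 in naive WT and 60049, 8791 and 14917 after ONC. WT ONC replicate 1 was several times above the other ONC libraries, and the log2 fold change of 4.31 ± 0.48 (adjusted p = 5.0e-06 in limma) was the highest among the 49 genes. Usp18, the protease that removes ISG15 from proteins and blocks the receptor, was 554 to 976 in naive WT and 4002 to 7875 after ONC, an 8.57-fold rise. Ifit3, which binds viral RNA complexes and carries a pair of elements printed above, was 964 to 2235 and then 9779, 9603 and 17613, a 7.06-fold rise. Lgals3bp was 8667 to 11001 in naive WT and 53334 to 66716 after ONC (6.22-fold). Xaf1, a pro-apoptotic factor, was 439 to 504 and then 2094 to 3800 (6.10-fold). For all of Usp18, Ifit3, Lgals3bp and Xaf1 the groups did not overlap, and the adjusted p in limma was between 4.5e-06 and 5.7e-06.

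By role, all 5 sensors of foreign RNA and DNA rose after ONC in WT, with Zbp1, the sensor of Z-form nucleic acid, at a log2 fold change of 3.23 and Eif2ak2, the RNA-activated kinase PKR, at 1.14. Of the 10 OAS, IFIT and Mx effectors, which degrade or bind viral RNA or trap viral capsids, 9 rose, from Oas2 (1.68) to Oas1a (3.11), and Mx2 (1.07, adjusted p = 0.22) did not pass. The ISG15 system rose in all 3 genes, Isg15 (3.35), Usp18 (3.10) and the ligase Herc6 (1.68). Of 6 membrane and other antiviral effectors 5 rose, led by Rsad2 (viperin, 2.93), Isg20 (2.80) and Ifitm3 (2.74), and Samd9l (0.70, adjusted p = 0.26) did not pass. All 3 TRIM and other ubiquitin ligases (1.10 to 1.82), both guanylate-binding proteins (Gbp2, 2.59, and Gbp3, 1.56), all 3 p200 and nuclear body genes (1.35 to 2.39) and both PARPs (1.09 and 1.58) rose. Of the Schlafens, Slfn2 (2.18) and Slfn5 (1.47) rose and Slfn8 (0.97, adjusted p = 0.068) did not pass. The 6 other induced genes all rose.

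Irf7 aside, the receptor chains and transcription factors moved less than the median of 2.02 over the 49 genes. Ifnar1, on chromosome 16, was 4051, 3388, 3572 and 3431 in naive WT and 2781, 3316 and 3530 after ONC, with overlapping groups and a log2 fold change of -0.17 (95% interval -0.51 to 0.16). Ifnar2 was 3955 to 5708 in naive WT and 9995, 4880 and 9040 after ONC. Replicate 2 lay within the naive range, and the adjusted p was 0.15 in limma. Stat2 was 1459 to 1963 and then 3132, 4052 and 6725, with no overlap and a log2 fold change of 1.42 ± 0.20 (adjusted p = 5.6e-05 in limma). Irf9 was 1611 to 1913 and then 4567, 3076 and 3891, with no overlap (1.07 ± 0.20, adjusted p = 0.00090 in limma). Irf1 was 1217 to 1892 and then 2542, 2077 and 3052, a difference of 0.69 that missed the threshold at an adjusted p of 0.059 in limma. The 18 genes with the element in their window had a median log2 fold change of 1.92 in WT and 2.25 in KO, and the 20 without it 2.09 and 2.09.

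**Figure D3:**
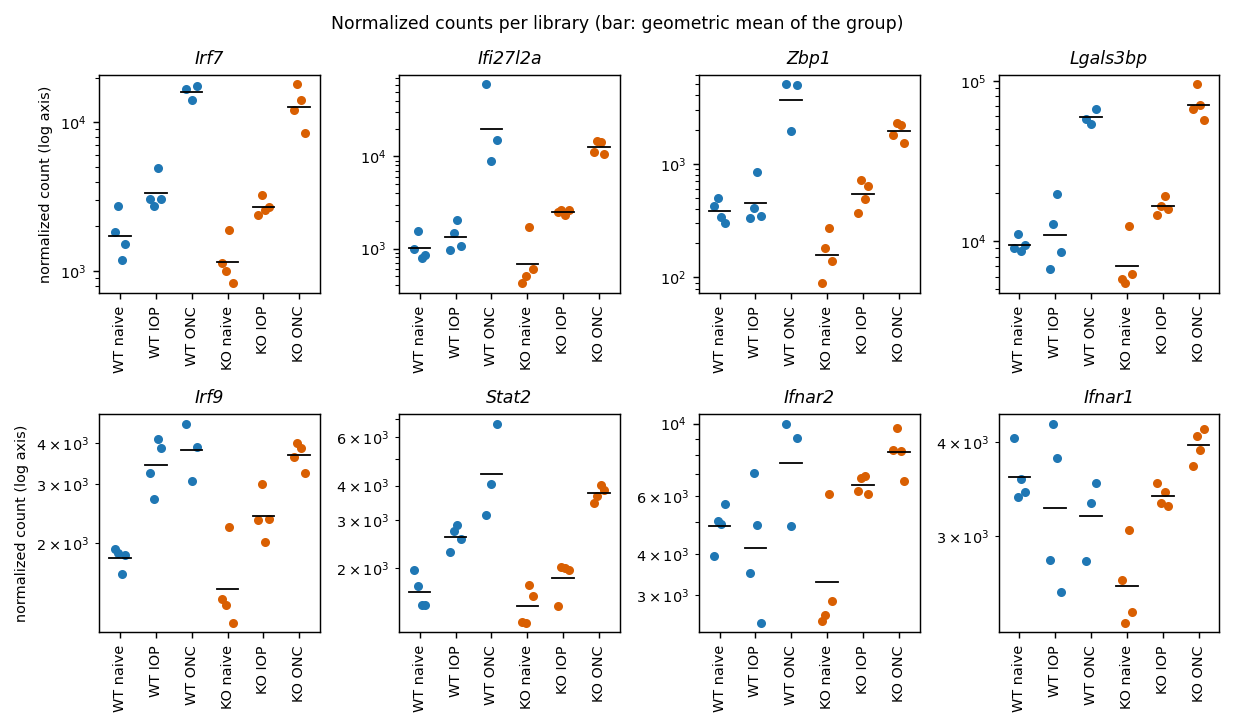
Normalized counts (log axis, one scale per gene) of 8 of the 49 genes in each library, with the geometric mean of each group as a bar, WT in blue and KO in orange. Irf7, Ifi27l2a, Zbp1 and Lgals3bp stand apart after ONC in both genotypes, whereas Ifnar1 spans 2301 to 4235 over all 23 libraries.

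In KO libraries ONC raised 47 of the 49 genes and lowered 0, against 12.7% of all genes called higher, with a median log2 fold change of 2.30 (-0.12 over all genes tested). The groups did not overlap for 47 genes, against 13.4% of all genes. Irf7 was 1141, 1000, 1889 and 829 in naive KO and 12196, 17993, 14069 and 8438 after ONC, and every ONC library exceeded every naive one (log2 fold change 3.46 ± 0.27, adjusted p = 6.5e-08 in limma). Lgals3bp was 5758, 5448, 12479 and 6230 and then 66736, 94783, 70113 and 57271 (3.34 ± 0.27). Naive replicate 3 was the highest naive library for both genes. Zbp1 was 89.0, 180, 272 and 139 and then 1793, 2295, 2192 and 1526 (3.61 ± 0.35). Ifi27l2a was 420, 503, 1733 and 603 and then 10996, 14635, 14326 and 10699 (4.19 ± 0.44). Xaf1 (228 to 639, then 1440 to 2174, 5.75-fold) and Bst2, the virus-tethering protein tetherin (918 to 2266, then 4181 to 7636, 4.81-fold), also did not overlap between the groups. The adjusted p for these 6 genes in limma was between 6.5e-08 and 5.3e-06.

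The receptor chains and Irf1 passed the test in KO. Ifnar1 was 2619, 2301, 3057 and 2374 in naive KO and 3718, 4080, 3908 and 4167 after ONC (0.62 ± 0.15, adjusted p = 0.0041 in limma). Ifnar2 was 2506, 2617, 6119 and 2877 and then 8299, 9721, 8282 and 6692 (1.32 ± 0.29, adjusted p = 0.0024 in limma). Irf1 was 1065, 1096, 1901 and 1069 and then 2528, 3191, 2546 and 1917 (1.01 ± 0.23). Stat2 (1.37) and Irf9 (1.33) rose also. The 2 genes that did not pass were Samd9l and Cmpk2, a mitochondrial nucleotide kinase, at log2 fold changes of 0.90 and 0.79. Of the genes called, 42 were shared by the 2 genotypes, which is 42 of 43 in WT and 42 of 47 in KO. Cmpk2 was called in WT alone, and Ifnar1, Ifnar2, Irf1, Mx2 and Slfn8 in KO alone. This count of calls does not test the difference between genotypes, which is given below.

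The number of calls after ONC in KO changed with the libraries and covariates in the fit, and so did the number over all genes. Leaving out naive KO replicates 1, 2, 3 and 4 in turn gave 46, 45, 48 and 45 of the 49 genes, where the shares of all genes are not given here. With the rod marker level as a covariate 25 genes were called, and with the microglial marker level 20, against 1.89% and 1.6% of all genes called higher. Without the 5 libraries above 2.5% rod markers, which leaves 1 naive KO library assumed to vary like the other groups, 6 genes were called, against 0.52% of all genes, and the median log2 fold change was 1.36. Without the 6 KO libraries that held Spp1, which leaves 1 KO ONC library, 14 were called, against 0.555%, and the median was 2.28. In all of these fits at least 48 of the 49 genes had a positive difference. After rescaling to the microglial markers 43 were above and 6 below 0, at a median of 1.13, and 33 were called. The share of all genes is not given for the rescaled fit.

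Raised intraocular pressure gave smaller differences. In WT, 2 of the 49 genes rose and 0 fell, against 0.842% of all genes called higher, and the median log2 fold change was 0.41 (-0.02 over all genes tested). Groups did not overlap for 8 genes, all higher after IOP, against 6.75% of all genes. Irf9 was 1913, 1871, 1611 and 1836 in naive WT and 3245, 2714, 4124 and 3868 after IOP (0.93 ± 0.19, adjusted p = 0.012 in limma). Trim25, the ubiquitin ligase that activates the RNA sensor RIG-I, was 1014, 1055, 853 and 1006 and then 1814, 1833, 1920 and 2124 (0.97 ± 0.20, adjusted p = 0.013 in limma). Each IOP library exceeded each naive library for both genes. Stat2 was 1459 to 1963 and then 2280 to 2870, also without overlap, at an adjusted p of 0.086 in limma, and Irf7 was 1187 to 2745 and then 3069, 2728, 4936 and 3059, with replicate 2 just below the highest naive library (0.95, adjusted p = 0.087 in limma). Both calls were lost without naive WT replicate 3 and without WT IOP replicate 4, at adjusted p values of 0.054 to 0.060 in limma. Without WT IOP replicate 3 both calls were kept, but the median over the 49 genes fell to 0.15 and 31 rather than 43 differences were above 0. With the rod marker level as a covariate 10 genes were called (median 0.67), and with the microglial marker level 11 (median 0.74). After rescaling to the microglial markers 8 were called (median 0.76). In KO these settings gave 0, 0 and 2 calls, so the order of the main counts, 2 in WT and 17 in KO, changed with the setting. Shares of all genes are not given for these fits, and none of these counts is read as an order of the genotypes. Lens marker genes made up 0.129% to 0.950% of counts in WT IOP libraries and at most 0.0188% in any other library, and their part in these results was not tested.

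In KO libraries IOP raised 17 of the 49 genes and lowered 0, against 5.06% of all genes called higher, with a median log2 fold change of 0.91 (-0.12 over all genes tested). The groups did not overlap for 13 genes, against 5.43% of all genes. Zbp1 was 89.0, 180, 272 and 139 in naive KO and 371, 722, 493 and 636 after IOP (1.77 ± 0.35, adjusted p = 0.011 in limma). Slfn5, a nuclear Schlafen protein, was 552, 613, 1153 and 789 and then 2589, 2386, 2086 and 2884 (1.73 ± 0.37, adjusted p = 0.014 in limma). In both genes all IOP libraries lay above all naive ones. Ifi27l2a was 420, 503, 1733 and 603 and then 2498, 2621, 2311 and 2596 (1.87 ± 0.44). Irf7 (829 to 1889, then 2382 to 3266), Bst2 (918 to 2266, then 2524 to 2880) and Lgals3bp (5448 to 12479, then 14591 to 19017) rose 2.22-fold to 2.34-fold, in each case with naive replicate 3 nearest to the IOP libraries. The adjusted p of these 4 genes in limma was 0.017 to 0.021. The others called were Slfn2, Irf9, Oas1a, Ifi204, Eif2ak2, Ddx58, Ifnar2, Dhx58, Xaf1, Ifi35 and Oasl1, at log2 fold changes of 0.72 to 1.37. Y-linked markers (4 genes, among them Ddx3y) made up 0.0155%, 0.0236% and 0.0229% of counts in naive KO replicates 1, 2 and 4. They made up 0.000701% in naive replicate 3 and 0.000367% to 0.000636% in KO IOP libraries. Cx3cr1 was 9417 to 26283 in naive KO libraries and 952 to 1233 in KO IOP libraries. Pressure, Cx3cr1 level and sex of the mice therefore cannot be told apart in this comparison.

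The number of calls after IOP in KO also changed with the libraries in the fit. It was 2, 1 and 2 without naive KO replicates 1, 2 and 4, where 0.678%, 0.368% and 0.497% of all genes were called higher and the median log2 fold change was 0.85, 0.82 and 0.88. It was 35 without replicate 3, against 10.8% of all genes. It was 12, 6, 7 and 7 without KO IOP replicates 1, 2, 3 and 4. It was 0 with either marker level as a covariate, 0 in a fit of the compared groups alone, 0 without the 5 libraries above 2.5% rod markers and 0 without the 6 KO libraries that held Spp1. The median log2 fold change in the 5 fits without a call lay between 0.14 (without the 5 libraries) and 0.91. edgeR called 6 of the 49 genes and DESeq2 called 21. Shares of all genes are given here only for the fits without 1 naive KO library. Without the 6 libraries the adjusted p of the genes named above was 0.22 to 0.26 in limma.

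**Figure D4:**
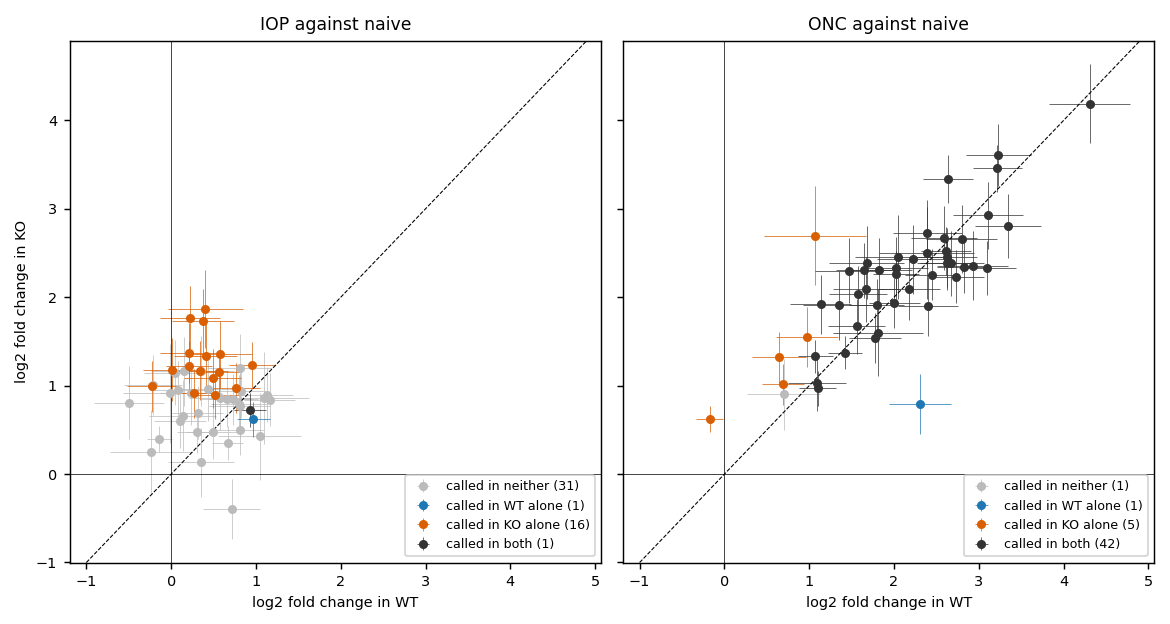
Log2 fold change against naive in WT (horizontal) and KO (vertical) for the 49 genes, with standard errors from limma, after IOP (left) and ONC (right). The dashed line marks equal change. After ONC 42 genes were called in both genotypes, after IOP 1 (Irf9). The comparisons within a genotype share the naive libraries.

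The response was larger after ONC than after IOP for 48 of the 49 genes in WT, Ifnar1 being the exception, and for 49 of 49 in KO. These differences share the naive libraries of each genotype and lie between 7 days after one injury and 4 weeks after the other, so that injury and time cannot be told apart. In KO, the IOP libraries also differed from the ONC libraries in Cx3cr1 and in Y-linked markers.

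To determine whether loss of Spp1 altered these genes, KO libraries were compared with WT libraries in each condition. In naive retinas Cx3cr1 also differed between the genotypes (44957 to 67878 in WT, 9417 to 26283 in KO). Genotype and Cx3cr1 level therefore cannot be told apart in this comparison. Of the 49 genes 0 were called in limma, against 0.409% of all genes. At an unadjusted p under 0.05, 10 genes were lower and 0 higher (9.97% of all genes were lower), edgeR called 0 and DESeq2 called 1. The log2 difference was below 0 for 47 genes, against 48.1% of all genes, with a median of -0.49. This direction turned when values were rescaled to the microglial markers, with 44 of 49 above 0 and 4 called higher, but rescaling moved the median of all genes to 0.93, above the median of 0.42 for the 49 genes. It turned also with the microglial marker level as a covariate (36 above 0, median 0.20) and without the 5 libraries above 2.5% rod markers (40 above 0, median 0.31). It did not turn with the rod marker level as a covariate (14 above and 35 below 0, median -0.14), with upper-quartile rescaling (45 below 0), with quantile normalization (47 below 0, 1 called) or without the 6 KO libraries that held Spp1 (44 below 0, median -0.38, 0 called). Zbp1 had the lowest adjusted p, at 425, 501, 343 and 303 in WT and 89.0, 180, 272 and 139 in KO (-1.29, 95% interval -2.03 to -0.56, adjusted p = 0.079 in limma). The groups did not overlap. Slfn5 was 1228 to 1997 in WT and 552 to 1153 in KO (-1.05, interval -1.81 to -0.29, adjusted p = 0.16 in limma), again without overlap. Ifnar1 was 3388 to 4051 in WT and 2301 to 3057 in KO, without overlap (-0.49, adjusted p = 0.11 in limma). Mx2 was 58.6, 112, 49 and 41.8 in WT and 36.7, 49.9, 44.6 and 9.35 in KO, and the groups overlapped (-0.998, interval -2.16 to 0.16). Without naive KO replicate 3, 10 genes were called lower, Zbp1 (-1.55, adjusted p = 0.0081 in limma) and Slfn5 (-1.26, adjusted p = 0.041 in limma) among them, but 1623 of all genes were then called in place of 70, and 7.27% of all genes were called lower.

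After IOP 0 of the 49 genes were called between KO and WT in limma, against 2.11% of all genes, and edgeR and DESeq2 called 0 and 0. At an unadjusted p under 0.05, 4 genes were lower and 2 higher in KO, against 12% and 9.02% of all genes. The median log2 difference was -0.03, with 24 genes above and 25 below 0. Without WT IOP replicate 3 it was 0.18 with 36 above 0, whereas 42 genes were below 0 with the rod covariate (median -0.47, 1 called lower) and 46 without the 5 libraries above 2.5% rod markers (median -0.36, 1 called lower). Without the 6 KO libraries that held Spp1, 22 were above and 27 below 0, at a median of -0.14 and 0 calls. Oas3, one of the synthetases that activate RNase L, had the largest difference, at 1172, 1166, 2777 and 656 in WT and 150, 636, 1034 and 919 in KO (-1.19, 95% interval -2.28 to -0.11, adjusted p = 0.20 in limma). Ifi44 was 364, 890, 1231 and 161 in WT and 162, 296, 341 and 246 in KO (-0.996, interval -2.01 to 0.02). Ifi27l2a went the other way, at 966, 1478, 2046 and 1058 in WT and 2498, 2621, 2311 and 2596 in KO (0.92, interval -0.0038 to 1.84, adjusted p = 0.24 in limma). Of these 3 genes, Ifi27l2a alone had groups that did not overlap. Irf9, with the lowest adjusted p of the 49 (0.13 in limma), was 2714 to 4124 in WT and 2018 to 3008 in KO. Stat2 was 2280 to 2870 in WT and 1457, 2021, 1996 and 1968 in KO, without overlap (-0.49, adjusted p = 0.15 in limma).

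After ONC 0 of the 49 genes were called between KO and WT in limma, against 0.0877% of all genes, and edgeR and DESeq2 called 0 and 0. The difference was below 0 for 42 genes, against 46.7% of all genes, with a median of -0.34. Without WT ONC replicate 3, 31 were below 0 and the median was -0.14, and without the 6 KO libraries that held Spp1, 35 were below 0 and the median was -0.20, with 0 calls in both fits. At an unadjusted p under 0.05, 6 genes were lower, against 2.63% of all genes, and 0 were higher. Cmpk2 was 2455, 1694 and 3568 in WT and 1097, 1610, 1300 and 1155 in KO (-0.94, 95% interval -1.70 to -0.19, adjusted p = 0.41 in limma), and every KO library lay below every WT library. Isg15 was 2080, 925 and 2516 in WT and 743, 1094, 1036 and 724 in KO (-0.94, interval -1.75 to -0.13, adjusted p = 0.46 in limma). Zbp1 was 4986, 1955 and 4898 in WT and 1793, 2295, 2192 and 1526 in KO (-0.91, interval -1.71 to -0.12, adjusted p = 0.46 in limma). For Isg15 and Zbp1, WT replicate 2, which held 2.05% rod markers against 0.543% and 0.651% in the other WT ONC libraries, lay within the KO range. Ifnar1 went the other way, at 2781 to 3530 in WT and 3718 to 4167 in KO, without overlap (0.31, adjusted p = 0.57 in limma). Y-linked markers made up 0.0125%, 0.000622% and 0.000334% of counts in WT ONC replicates 1, 2 and 3. They made up 0.00927% to 0.0166% in KO ONC libraries. Sex of the mice was thus not balanced between the genotypes after ONC, and its part was not tested. Over the 49 genes the 95% interval of the difference lay wholly within 2-fold for 16 genes after ONC, 29 after IOP and 14 in naive retinas, so that larger differences remain possible for the rest.

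The difference between genotypes in the response to injury was tested as an interaction. KO IOP libraries differed from naive KO libraries in Cx3cr1 and, except for naive replicate 3, in Y-linked markers. The IOP interaction cannot be told apart from these differences. For IOP 0 of the 49 genes were called in limma, against 8.75% of all genes. At an unadjusted p under 0.05, 11 interactions were positive and 1 negative, against 13.3% and 12.9% of all genes, edgeR called 0 and DESeq2 called 1. The interaction was above 0 for 36 genes, against 46.8% of all genes, but for 15 with the microglial covariate, 16 with the rod covariate and 9 after rescaling to the microglial markers, where 9 genes were called negative and the median of all genes was -1.16 against -0.59 for the 49 genes. Without the 5 libraries above 2.5% rod markers it was above 0 for 4 genes, at a median of -0.74. Without the 6 KO libraries that held Spp1 it was above 0 for 34 genes, at a median of 0.28 in place of 0.49, and 0 were called. Zbp1 had the lowest adjusted p, with a log2 difference in response of 1.55 ± 0.50 (0.056 in limma), followed by Ifnar2 at 1.22 ± 0.41 (0.068). Without naive KO replicate 3, 13 genes were called, against 10.2% of all genes called positive. Without WT IOP replicate 3, 5 were called, without WT IOP replicate 2, 2, and without KO IOP replicate 1, 1. Shares of all genes are not given for the rescaled fit or for the fits without an IOP library. Their counts are therefore not read as a result about the interferon genes. For ONC 0 of the 49 genes were called in limma, against 0.0702% of all genes, 1 interaction was positive and 1 negative at an unadjusted p under 0.05 (8.21% and 4.22% of all genes), edgeR called 0 and DESeq2 called 1. Y-linked markers differed between WT and KO ONC libraries as given above, and their part in the ONC interaction was not tested. Without the 6 KO libraries that held Spp1, 29 of the 49 ONC interactions were above 0, against 27 with them, and 0 were called. The 2 genes below an unadjusted p of 0.05 were Ifnar1 (0.80 ± 0.22, adjusted p = 0.14 in limma) and Cmpk2 (-1.52 ± 0.50, adjusted p = 0.21 in limma).

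The Oas and Oasl genes lie on chromosome 5 with Spp1. Oasl2 and Oasl1 lie 10.5 Mb, and Oas2, Oas3 and Oas1a 16.3 Mb to 16.5 Mb, from Spp1. These 5 genes had 0 calls between KO and WT in each condition, and their differences were below 0 in 5 of 5 in naive retinas, 2 of 5 after IOP and 4 of 5 after ONC. The part of sequence linked to the targeted allele in these differences was not tested.

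The ligands were near the limit of detection. Of 20 interferon genes searched, 0 passed the filter and 13 were at 0 in every library. Ifnb1, which encodes interferon beta, was 0, 10.4 and 5.85 in WT ONC and 0, 19.6, 3.21 and 0 in KO ONC, and outside these groups it was above 0 in 2 libraries, naive KO replicate 2 (8.85) and naive WT replicate 4 (0.929). Ifng, which encodes interferon gamma, was above 0 in more libraries (18, against 6 for Ifnb1) and was highest in naive WT replicate 1 (10.7). It was above 3 reads in 6 libraries, and Ifnb1 in 4. The count of 3 reads that a value of 0 allows corresponds to 2.41 to 4.03 normalized counts.

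Other genes of the pathway were read from lists of related genes, whose counts stand against the shares of all genes called higher given above: 7.55% after ONC in WT, 12.7% after ONC in KO, 0.842% after IOP in WT and 5.06% after IOP in KO. The kinase Jak1 was not called against naive in either genotype and Tyk2 was called in KO alone (0.72 after IOP and 1.10 after ONC), and Jak1 was called in the interaction with IOP (1.16 ± 0.35, adjusted p = 0.044 in limma), as were Irf5 (1.29) and Irf8 (1.35). Stat3 (0.63) and Irf8 (0.99) rose after ONC in WT. In KO, Stat3, Irf5 and Irf8 rose after IOP (0.83, 1.03 and 1.08) and after ONC (0.97, 1.17 and 1.64). Of 12 further sensors and adaptors, 2 rose after ONC in WT (Ikbke, 3.54, and Myd88, 0.92), 10 in KO, 0 after IOP in WT and 4 in KO (Tlr3, Tlr7, Myd88 and Unc93b1). Of 7 genes that restrain the response, 5 rose after ONC in WT and 5 in KO, with Trex1, the nuclease that removes cytosolic DNA, at 1.91 and 1.95. In KO after IOP 2 of the 7 rose, Socs3 (1.89) and Ptpn6 (1.02), and in WT 0. Of 55 further interferon-stimulated genes tested, 33 rose and 1 fell (Mndal, -2.04) after ONC in WT, 38 rose in KO, 16 rose after IOP in KO and 0 in WT. They included the chemokine gene Cxcl10, which was 73.4 to 248 in naive WT and 1367 to 2609 after ONC. Of 9 tested genes induced mainly by interferon gamma, 3 rose after ONC in WT and 4 in KO, 1 after IOP in WT (Irgm1, 0.82) and 1 in KO. Of 4 receptor chains of other interferons, 2 rose after ONC in KO, 1 after IOP in KO and 0 in WT. Between KO and WT, 0 genes of these lists were called in limma in any condition. In the interaction with IOP, where 8.75% of all genes were called, further positive calls were 1 of the 4 receptor chains (Ifngr1), 2 of the 12 sensors and adaptors (Tlr7 and Unc93b1), 2 of the 7 restraining genes (Socs3, 1.33, and Ptpn6, 1.41) and 4 of the 55 further interferon-stimulated genes. Ifitm1, one of these 55, was the only negative call, and 0 genes of the lists were called in the interaction with ONC.

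Markers of other immune cells were read in the same libraries. Border macrophage markers (7 genes, among them Mrc1 and Lyve1) made up 0.0675% to 0.147% of counts in WT naive, 0.0783% to 0.223% in WT IOP and 0.00582% to 0.0250% in WT ONC, where every library lay below every naive library. They made up 0.0546% to 0.117% in KO naive, 0.105% to 0.136% in KO IOP and 0.0259% to 0.0945% in KO ONC, and their part in the results was not tested. T and NK cell markers made up at most 0.00118% of counts, and monocyte and neutrophil markers at most 0.0108%. Of 4 plasmacytoid dendritic cell markers, Cox6a2 was 25.3 to 57.7 in naive WT, 242 to 1095 after ONC in WT, 11.3 to 23.8 in naive KO and 299 to 501 after ONC in KO. Ccr9 was 57.2 to 104 and 35.1 to 97.8 in these WT groups, and 17.4 to 297 and 25.1 to 58.3 in these KO groups. Ly6d was 0 to 51.5 and 0 to 6.90 in WT, and 0 to 3.27 and 0 to 10.2 in KO. Klk1 was at most 11.1 in naive WT, at most 2.78 after ONC in KO, and 0 after ONC in WT and in naive KO. The part of Cox6a2-expressing cells in the response was not tested.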

How the data were processed

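The authors isolated GFP+ microglia by sorting, extracted RNA with RNeasy Plus, prepared libraries with a SMARTER kit and sequenced paired ends. The study's methods name salmon against GRCm38, whereas the submitters' processing notes name STAR and DESeq2 without versions. The deposited values are a normalized signal, whole reads per gene divided by a size factor, and 100% of values were whole multiples of the step of 1 read (tolerance 0.1) in 23 of 23 libraries. Depth was 22180480 to 30296094 reads, and a value of 0 allows up to 3 reads, or 2.41 to 4.03 normalized counts. The lowest count of any of the 49 genes was 11 reads, where counting error is not small.

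Genes were named through GENCODE M21 (35436 of 35825 IDs). Log2(value + 1) of 17102 genes with at least 10 in at least 3 libraries was fitted with limma 3.58.1 (R 4.3.3, trend, 6 groups, 9 comparisons). edgeR 4.0.16 and DESeq2 1.42.0 on recovered reads, other pseudocounts, filters, scalings, marker covariates, a replicate block and leaving out each library were alternatives. Values per library are given for up to 6 called genes of lowest adjusted p per comparison, for the receptors and transcription factors, and for the 3 largest differences of each KO with WT comparison with fewer than 3 calls; Jak1, Tyk2 and Ifnb1 were added from the pathway lists, and other genes were named after their values were seen. The genes and lists were chosen with earlier results of these data known. The labels do not say whether replicate libraries came from separate animals, so p-values measure the spread between these libraries, which may be technical. Promoter windows came from RefSeq. Some items of the pathway and marker lists are not reported here.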

Additional observations from a re-analysis of the deposited data

Results flagged for a closer look

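Values of 20 genes and of the mean over the 49 genes were compared on the log2 scale within each group of 4 libraries, and a library was singled out when its gap to the nearest other library, divided by the range of the group, exceeded Dixon's 95% critical value for 4 values. Chance singles out about 1 in 20 independent groups. The groups here share libraries and hold genes that move together, so this rate cannot be compared with the 6 of 105 singled out. Of the 6 singled out, 5 were naive KO replicate 3. In that library Lgals3bp was 12479 (5448 to 6230 in the other 3), Bst2 was 2266 (918 to 1017), Ifnar2 was 6119 (2506 to 2877), Irf1 was 1901 (1065 to 1096) and the mean log2(normalized count + 1) of the 49 genes was 10.07 (9.04 to 9.12). The same library held 5.14% microglial and 1.26% rod marker counts, and its members' mean less the microglial marker mean was -5.55, against -5.21 to -4.90 in the other 3. Its Y-linked markers made up 0.000701% of counts, against 0.0155% to 0.0236% in the other 3. In KO IOP replicate 1, Stat2 was 1457, below the other 3 libraries (1968 to 2021).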

How the results depend on the processing

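Rescaling to the microglial marker mean, leaving out libraries above 2.5% rod markers and leaving out KO libraries with over 100 Spp1 were chosen after seeing the data. Counts of calls in this section stand without the share of all genes called, so they describe the fits and not the interferon genes alone. For ONC in WT, every alternative run gave 36 to 47 called genes. For KO against WT after ONC every alternative gave 0. KO against WT in naive retinas gave 1 with quantile normalization, 1 with DESeq2 and 4 (higher) after rescaling. KO against WT after IOP gave 1 with quantile normalization, 1 with each marker covariate and 1 without libraries rich in rod markers. IOP in WT gave 6 with quantile normalization, 10 with the rod and 11 with the microglial covariate, 4 in the compared groups alone, 8 after rescaling, 1 without libraries rich in rod markers, 1 without KO libraries holding Spp1 and 6 with DESeq2. IOP in KO gave 8 without a filter, 2 after rescaling, 6 with edgeR and 0 with either covariate, in the compared groups alone and without either set of libraries. ONC in KO gave 25 with the rod and 20 with the microglial covariate, 6 without libraries rich in rod markers and 14 without KO libraries holding Spp1. The IOP interaction gave 1 with a mean of at least 50, 1 with quantile normalization, 1 with the replicate block, 9 (negative) after rescaling and 1 with DESeq2, and the ONC interaction 1 with the microglial covariate and 1 with DESeq2. The cause of these changes was not tested.

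Leaving out 1 library gave 0 to 10 for KO against WT in naive retinas, 0 for KO against WT after IOP and after ONC, 0 to 4 for IOP in WT, 36 to 44 for ONC in WT, 1 to 35 for IOP in KO, 45 to 48 for ONC in KO, 0 to 13 for the IOP interaction and 0 to 1 for the ONC interaction. Replicate numbers were not used to pair the samples in the main fit. Deviations of 55 same-numbered pairs correlated at -0.25 to 0.23, with 10 above 0.1. Those of 165 pairs with different numbers correlated at -0.36 to 0.29, with 23 above 0.1. Whether same-numbered libraries shared an animal or a sort was not tested. The replicate block gave 19 genes for IOP in KO and 42 for ONC in WT. Rescaling moved the median of all genes from 0.03 to 0.93 for KO against WT in naive retinas. Of the differences of single genes chosen by the naming rule, 39 of 435 fitted under another setting and 17 of 223 fitted without 1 library lost their call, 3 and 2 gained one, and 0 changed direction.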
